A study of Homo sapiens with 6 samples.

Results

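The genes described here are 37 enzymes that make purine and pyrimidine nucleotides, turn them into the building blocks of DNA, and supply the folate-bound carbon that this synthesis uses. They were chosen by name: each is the row of the deposited table whose gene name equals that of a listed enzyme, and all 37 names were found once among 60612 genes. By branch, 14 belong to purine synthesis and salvage, 15 to pyrimidine and deoxynucleotide synthesis and 8 to the folate and methionine cycles.

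The samples were HCT116 cells, a widely used line from a human colorectal carcinoma, kept in DMEM medium with 10% fetal bovine serum. In the control group, 3 samples had received si NC, the series' control siRNA (these samples are called controls from here on), and in the other group 3 samples had received PLOD3 siRNA, in both groups for 2 days. PLOD3 encodes a lysyl hydroxylase that modifies collagen. RNA was sequenced after removal of ribosomal RNA. All samples share 1 cell line, and the labels name neither the siRNA sequences nor whether samples of 1 group came from different cultures. The p-values therefore reflect only how much these samples varied, and that variation may be technical. The label for the line was checked against markers: 8 of 10 epithelial genes had a mean of at least 1 FPKM (fragments counted per kilobase of a transcript and scaled to the library), while CDX1 and VIL1 were below 0.01. The summed epithelial markers were at 711 to 758 FPKM in the controls and 588 to 666 in PLOD3 siRNA. There, CDH1, KRT18 and KRT19 fell by 0.76, 0.46 and 0.23 on the log2 scale (edgeR adjusted p = 0.0287, 0.00861 and 0.0315). EPCAM, ELF3, KRT8, CDX2 and CLDN4 did not pass that test (edgeR adjusted p = 0.224, 0.126, 0.404, 0.143 and 0.516). Their log2 fold changes relative to the controls were 0.10, -0.15, -0.18, -0.25 and -1.12. The part of the epithelial markers in the results was not tested. Summed markers of fibroblasts, leukocytes and endothelial cells did not exceed 2.82, 1.94 and 0.230 FPKM in any sample. PLOD3 was at 6.40, 7.16 and 6.22 FPKM in the controls and at 3.44, 3.40 and 4.05 in PLOD3 siRNA, or 55.1% of the control mean. Total estimated counts lay between 55416555 and 76802428 per sample, in units of which about 4 made up a read pair. Pearson's correlation across genes was 0.971 to 0.977 within groups and 0.943 to 0.960 between them. Some properties of the libraries differed between the groups without overlap: the mitochondrial share of counts was 18.01 to 20.1% in the controls and 14.4 to 16.4% in PLOD3 siRNA, and the FPKM summed to 386459 to 403665 and 357209 to 377471. Their part in the levels of the enzymes was not tested.

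Cells build the purine ring stepwise on ribose phosphate until inosine monophosphate (IMP) is reached, from which the adenine and guanine nucleotides branch off, and they can also salvage free bases with phosphoribosyltransferases. The pyrimidine ring is made first and joined to ribose phosphate afterwards, and ribonucleotide reductase then converts ribonucleotides of both kinds into deoxynucleotides. Folate carries the carbon units that the purine ring and thymidylate need, most of them taken from serine, and growing tumour cells are known for a high demand on all of these routes.

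Across the 37 enzymes, 14 rose and 2 fell in PLOD3 siRNA, and 21 did not pass the test (edgeR's quasi-likelihood test with Benjamini-Hochberg adjustment over all 12000 genes tested, threshold 0.05). All 37 had a mean of at least 1 FPKM and were tested. In the same fit, 16.2% of all genes tested were called higher and 19.3% lower (35.5% in either direction), against 37.8% and 5.41% of the enzymes. The median log2 fold change was 0.24 over the enzymes and 0.00 over all genes tested, and 29 of the 37 values were above 0. Most changes were small: 4 called enzymes differed by at least 1.5-fold (PAICS, RRM1, NME1 and HPRT1, all higher), or 10.8% of the 37, against 14.7% of all genes tested. By branch, 6 of 14 purine enzymes rose and 0 fell, 6 of 15 pyrimidine and deoxynucleotide enzymes rose and 1 fell (CAD), and 2 of 8 folate and methionine enzymes rose and 1 fell (SHMT1). The number called higher was smaller in fits without 1 sample. It was 4 without si NC replicate 3, 4 without PLOD3 siRNA replicate 1 and 9 without si NC replicate 1. Without any of the other 3 samples it was 10 or 11. CAD and SHMT1 were called lower in each of these 6 fits. For all genes the number called higher was 1106 without si NC replicate 3 and 1083 without PLOD3 siRNA replicate 1, against 1945 with all samples. With limma on FPKM rescaled to TPM, 2470 of all genes were higher and 1461 lower, and 16 enzymes higher and 1 lower. That scaling moved the median log2 fold change of all genes tested to 0.095.

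Not every high value passed the test. In 21 enzymes all 3 PLOD3 siRNA samples had a higher FPKM than every si NC sample, and in 3 all were lower (CAD, SHMT1 and IMPDH1), where 24.6% and 27.5% of all genes tested (52.1% in sum) showed such a separation. The remaining 13 overlapped between the groups. The 14 enzymes called higher were all among the 21. Bulk RNA cannot tell fewer cells of a kind from less RNA per cell.

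**Figure D1:**
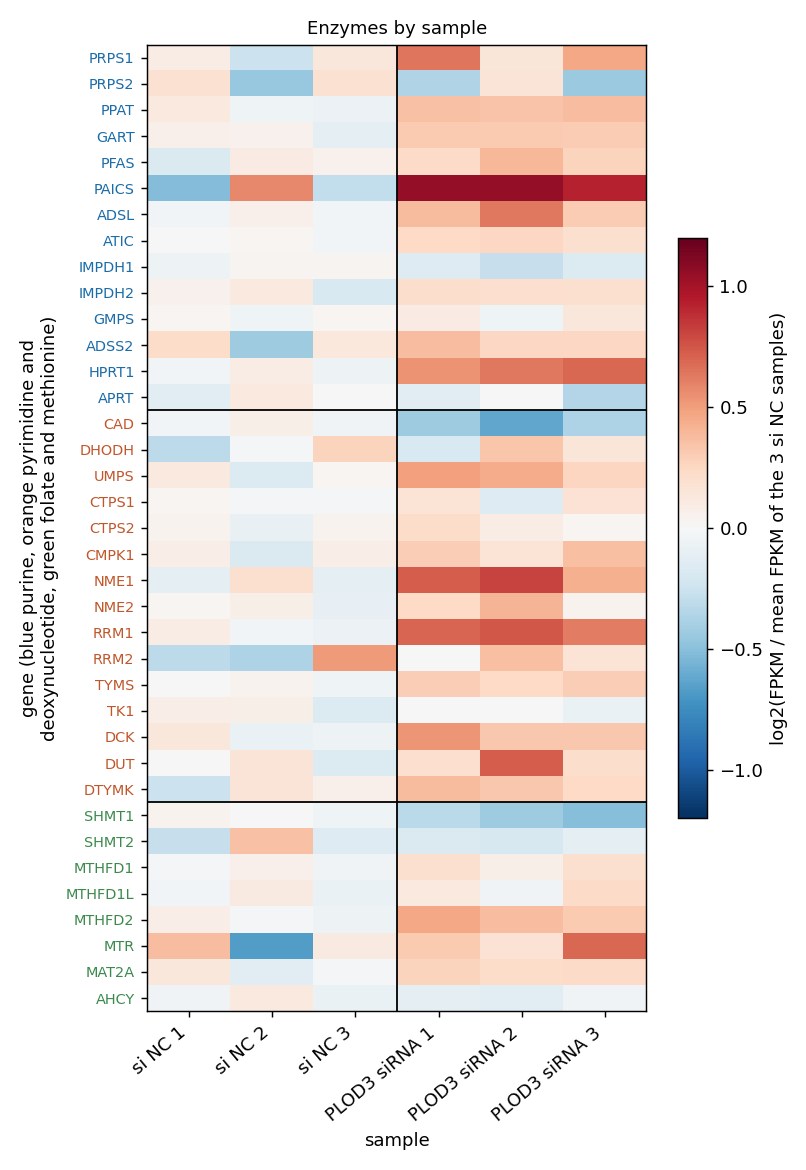
Level of each of the 37 enzymes in each of the 6 samples, as log2 of the FPKM divided by the mean of the 3 si NC samples (red above, blue below), with genes in rows, grouped by branch, and samples in columns. RRM1, HPRT1, PAICS and NME1 were higher in all 3 PLOD3 siRNA columns, and CAD and SHMT1 were lower in all 3.

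The first steps of purine synthesis include a pair of genes that share a promoter, PPAT and PAICS. PPAT (ENSG00000128059, chromosome 4, 56393362 to 56435615, minus strand) encodes the amidotransferase that commits ribose phosphate to purine synthesis, and PAICS (ENSG00000128050, chromosome 4, 56435741 to 56461368, plus strand) encodes a later enzyme with a carboxylase and a synthetase activity. All positions are those of the deposited table, read as GRCh38. The gene starts lie 125 bases apart and point away from each other. The promoter windows of the 4 enzymes to which the results return most are shown here, 250 bases before and 50 after the transcript start that lies nearest to the table's gene start (RefSeq, GRCh38.p14). PAICS, HPRT1 and RRM1 are shown because they rose most clearly or by most, and CAD because it fell. Capitals mark every E-box (CACGTG), GC box (GGGCGG) and CCAAT box on either strand, so a box on the minus strand appears as its reverse complement.
PAICS (chr4:56435502-56435801, plus strand): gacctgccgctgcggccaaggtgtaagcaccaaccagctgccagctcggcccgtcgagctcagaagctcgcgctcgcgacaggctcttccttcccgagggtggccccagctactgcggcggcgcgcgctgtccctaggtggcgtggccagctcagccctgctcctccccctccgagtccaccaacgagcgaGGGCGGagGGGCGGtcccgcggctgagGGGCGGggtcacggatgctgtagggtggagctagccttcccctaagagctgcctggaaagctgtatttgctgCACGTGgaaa
HPRT1 (chrX:134459915-134460214, plus strand): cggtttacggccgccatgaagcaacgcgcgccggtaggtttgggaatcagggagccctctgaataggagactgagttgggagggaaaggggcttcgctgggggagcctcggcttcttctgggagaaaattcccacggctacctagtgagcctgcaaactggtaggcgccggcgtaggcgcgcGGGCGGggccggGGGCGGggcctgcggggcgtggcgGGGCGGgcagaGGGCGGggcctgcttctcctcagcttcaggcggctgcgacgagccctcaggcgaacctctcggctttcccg
RRM1 (chr11:4094435-4094734, plus strand): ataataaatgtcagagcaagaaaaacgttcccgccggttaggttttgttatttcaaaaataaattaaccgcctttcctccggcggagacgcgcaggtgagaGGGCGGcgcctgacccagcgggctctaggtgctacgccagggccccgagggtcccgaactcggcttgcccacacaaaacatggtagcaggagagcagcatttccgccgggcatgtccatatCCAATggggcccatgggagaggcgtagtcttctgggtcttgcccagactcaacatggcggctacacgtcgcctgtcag
CAD (chr2:27217119-27217418, plus strand): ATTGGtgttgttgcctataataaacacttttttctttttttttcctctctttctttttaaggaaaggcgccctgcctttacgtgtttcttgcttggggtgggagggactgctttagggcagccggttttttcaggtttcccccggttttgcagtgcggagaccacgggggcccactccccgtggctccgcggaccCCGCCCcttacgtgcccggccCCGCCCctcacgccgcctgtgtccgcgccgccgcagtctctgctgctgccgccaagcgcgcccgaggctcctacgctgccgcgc
In the PAICS window an E-box starts 40 bases after the transcript start, and 3 GC boxes lie before it. This window shares 236 of its 300 bases with that of PPAT, so their boxes are the same letters. The HPRT1 window holds 4 GC boxes and the CAD window 2, while the RRM1 window holds 1 GC box and 1 CCAAT box.

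Of the 37 enzymes, 34 had an entry among the RefSeq promoters, and ADSL, IMPDH2 and SHMT2 did not. An E-box was found in 8 of the 34 windows (23.5%), namely those of PAICS, PPAT, ATIC, NME1, DCK, DHODH, MTHFD1 and MTHFD1L, against 7.2% of 34796 promoter windows of the same length. Of the windows with an entry, an E-box was in 5 of 13 enzymes called higher (38.5%, the first 5 named) and 3 of 19 not called (15.8%). Boxes that PAICS and PPAT share were counted for both, so these windows are not independent. GC boxes were found in 25 windows (73.5% against 44.9% of all), in 7 of those called higher (53.8%) and 16 of those not called (84.2%). CCAAT boxes were found in 14 (41.2% against 34.6%), in 5 called higher (38.5%) and 7 not called (36.8%) and an E2F-type site (the letters TTTCCCGC, TTTGGCGC or TTTCGCGC) in 4 (11.8% against 2.73%), although in none of the 4 windows shown. A TATA box (TATAAA) was found in 2 (5.88% against 11.6%) and the ATF4-type motif TGATGNAA in 1 (2.94% against 3.63%). These are matches of letters on both strands, with no overlap between the motifs required or excluded, and no binding was measured. The 34796 windows were all distinct RefSeq windows, whether or not their genes were expressed here, with more than 1 window allowed per gene. Each enzyme had 1 window and was expressed, so the sets compared are unlike. Whether the shares are particular to these enzymes was not tested.

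MYC, a transcription factor known to bind E-boxes and to drive nucleotide synthesis genes in many cells, was at 4.01, 5.01 and 4.17 FPKM in the controls and at 37.5, 3.14 and 38.9 in PLOD3 siRNA. PLOD3 siRNA replicate 2 lay below the controls and the other 2 replicates far above them. The part of MYC in the levels of the enzymes was not tested.

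PAICS showed the largest difference of the 37. It stood at 27.7, 59.1 and 32.2 FPKM in the controls and at 82.3, 82.5 and 75.2 in PLOD3 siRNA. The 3 PLOD3 siRNA samples were close together and above all controls, but si NC replicate 2 was far above the other controls. The mean rose from 39.7 ± 17.0 to 80.02 ± 4.14 (SD, n = 3 each; log2 fold change 1.01, SE 0.292, edgeR adjusted p = 0.0378). The call was kept without si NC replicate 2 (edgeR adjusted p = 0.00792) and lost without any of the other 5 samples (0.0667 to 0.105). The log2 fold change was 1.44 without si NC replicate 2, and 0.80 and 0.89 without si NC replicates 1 and 3. It was 0.96 to 1.07 without 1 of the PLOD3 siRNA samples. After correction for the trend of fold change with GC content described further on, the log2 fold change was 0.80 (edgeR adjusted p = 0.117).

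PPAT, on the other side of the shared promoter, was at 12.2, 10.9 and 10.8 FPKM in the controls and at 14.4, 14.3 and 14.6 in PLOD3 siRNA. The groups did not overlap, and the PLOD3 siRNA samples hardly differed among themselves. It rose by 0.36 on the log2 scale (SE 0.0679, edgeR adjusted p = 0.010), and the call was kept without each sample in turn but not after the GC correction (log2 0.07, edgeR adjusted p = 0.474). The neighbours were thus both called higher, and both calls were lost with that correction.

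The other enzymes on the way to IMP lay near PPAT in size. GART, which carries 3 activities of the route in 1 protein, was at 20.7, 20.6 and 18.3 FPKM in the controls and at 24.7, 24.7 and 24.5 in PLOD3 siRNA, and it rose by 0.32 on the log2 scale (SE 0.0730, edgeR adjusted p = 0.0187). ADSL, adenylosuccinate lyase, was at 7.33, 7.80 and 7.34 against 9.73, 11.6 and 9.23, a rise of 0.45 (SE 0.120, edgeR adjusted p = 0.0289). ATIC, which closes the ring, was at 34.3, 34.9 and 33.6 against 40.5, 40.6 and 39.2, a rise of 0.23 (SE 0.0655, edgeR adjusted p = 0.0343). In each of these 3 genes all PLOD3 siRNA samples were above all controls by less than 1.5-fold on average. Calls on these genes were lost in some fits without 1 sample, where fewer of all genes tested were called as well. Their log2 fold changes in those fits were 0.27 to 0.36 (GART), 0.32 to 0.53 (ADSL) and 0.20 to 0.26 (ATIC). GART was lost without PLOD3 siRNA replicate 1 or si NC replicate 3 (edgeR adjusted p = 0.0561 and 0.0632), ATIC without PLOD3 siRNA replicate 1 or 2 or si NC replicate 1 or 3 (0.0683 to 0.105), and ADSL without PLOD3 siRNA replicate 1 or any of the 3 si NC replicates (0.0541 to 0.0826). ADSL was also lost after the GC correction (log2 0.36, edgeR adjusted p = 0.0693). AL022238.4, on the same strand, overlaps 18.9% of the exon bases of ADSL and was at 0.670 and 0.334 FPKM by the means.

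Of the 8 enzymes up to IMP, 5 thus rose and 0 fell. The others were PFAS and the synthetases PRPS1 and PRPS2, which make the activated ribose phosphate that starts the route. PFAS was at 3.95, 4.78 and 4.63 FPKM in the controls and at 5.22, 5.88 and 5.34 in PLOD3 siRNA (log2 0.31, edgeR adjusted p = 0.0924). With the GC correction it passed (log2 0.55, edgeR adjusted p = 0.0139). PRPS1 was at 14.9, 11.7 and 15.4 against 21.9, 15.5 and 19.3, without overlap but with a wide spread in both groups (log2 0.43, edgeR adjusted p = 0.0542). Without PLOD3 siRNA replicate 2 it passed (edgeR adjusted p = 0.0400). With all samples it passed in 4 of 11 alternative fits. These were DESeq2 (DESeq2 adjusted p = 0.0193), upper-quartile scaling (edgeR adjusted p = 0.0497) and the replicate block without and with the GC correction (edgeR adjusted p = 0.0327 and 0.0425). The GC correction alone gave an edgeR adjusted p of 0.0704. PRPS2 was at 17.4, 11.2 and 17.3 against 11.9, 17.1 and 11.3, so that the replicates labelled 2 were low in one group and high in the other (log2 -0.18, edgeR adjusted p = 0.593). The FPKM ratio of PRPS1 to PRPS2 was 0.931 ± 0.103 in the controls and 1.48 ± 0.503 in PLOD3 siRNA (SD, n = 3 each, two-sided exact permutation p = 0.2).

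**Figure D2:**
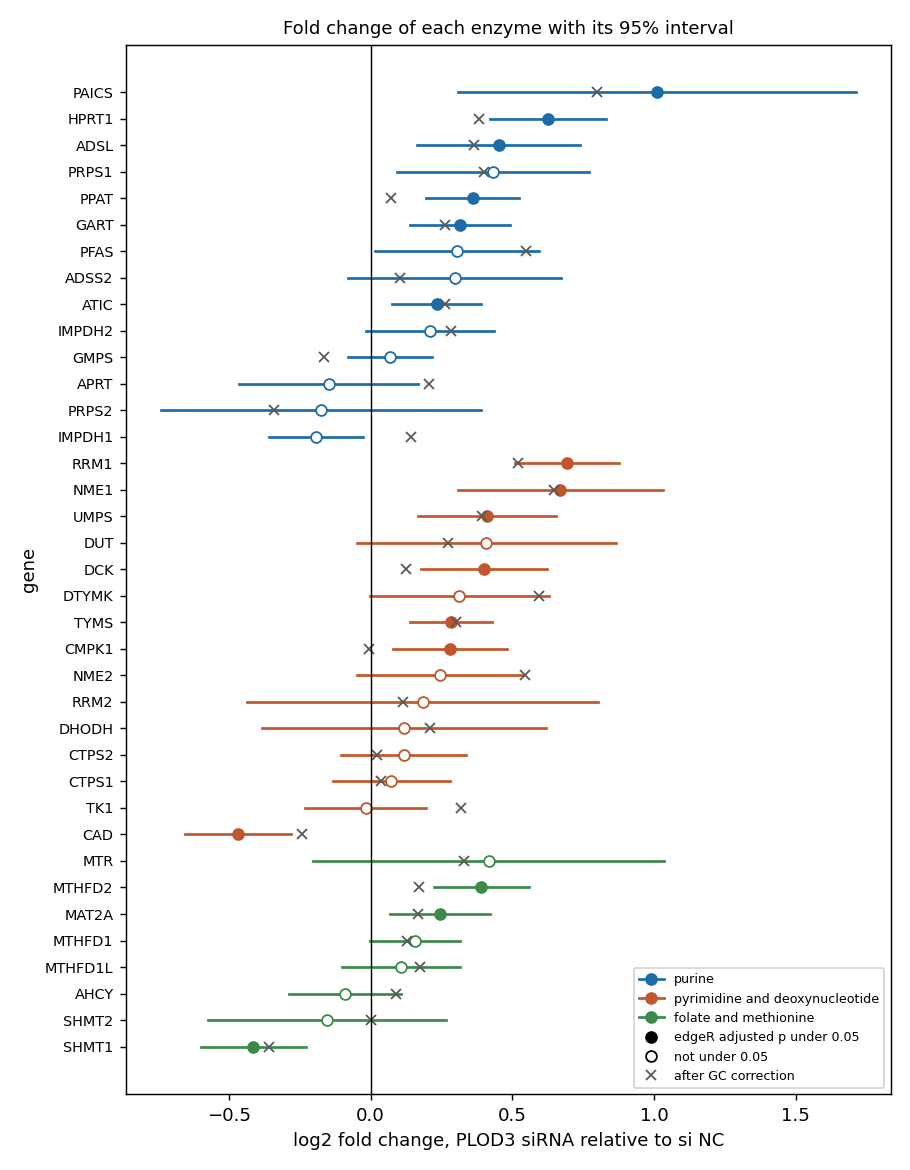
Log2 fold change of PLOD3 siRNA relative to si NC for the 37 enzymes, by branch and then by size, with 95% confidence intervals from edgeR (lines, n = 3 per group), filled points where the adjusted p was under 0.05 and crosses for the value after the GC correction. PAICS at 1.01 had the widest interval of the called enzymes, from 0.31 to 1.71. The interval of RRM1 at 0.69 ran from 0.51 to 0.88 and that of HPRT1 at 0.63 from 0.42 to 0.83.

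Past IMP, 0 of the 4 enzymes that lead to guanine and adenine nucleotides passed the test (edgeR), at an unadjusted p under 0.05 the count was 1, IMPDH1, and DESeq2 and limma called 0 as well. The edgeR adjusted p-values of IMPDH1, IMPDH2, GMPS and ADSS2 were 0.0727, 0.126, 0.419 and 0.184. IMPDH2, the main form of the enzyme that commits IMP to guanine nucleotides in dividing cells, had the highest FPKM of the 37, at 152, 159 and 129 in the controls and 170, 169 and 168 in PLOD3 siRNA (log2 0.21). IMPDH1, the other form, was at 16.3, 17.3 and 17.3 against 15.3, 14.1 and 15.1 (log2 -0.19). The forms thus separated the groups in opposite directions, without passing the test. Their ratio within a sample, IMPDH2 to IMPDH1, was 8.65 ± 1.03 in the controls and 11.4 ± 0.525 in PLOD3 siRNA (SD, n = 3 each), higher in 3 of 3 samples. The two-sided exact permutation p was 0.1, the smallest that 3 against 3 samples can give, and 0.3 after adjustment over the 6 ratios of related enzymes computed. The transcripts differ in GC content (52.3% and 62.8%): after the GC correction IMPDH2 passed at 0.28 (edgeR adjusted p = 0.0486) and IMPDH1 turned to 0.14 (edgeR adjusted p = 0.121). GMPS, which makes guanosine monophosphate, was at 12.9, 12.3 and 12.9 against 13.6, 12.3 and 13.97, and the 95% interval of its log2 fold change ran from -0.08 to 0.22. ADSS2, on the adenine side, was at 16.9, 10.8 and 15.8 against 18.7, 17.2 and 17.2 (log2 0.30).

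HPRT1, the salvage enzyme for guanine and hypoxanthine, was among the most evenly changed of the 37. HPRT1 (ENSG00000165704, chromosome X, 134460165 to 134500668, plus strand) was at 21.7, 23.6 and 21.2 FPKM in the controls and at 32.2, 34.4 and 35.7 in PLOD3 siRNA. The lowest treated sample was well above the highest control. The mean rose from 22.2 ± 1.26 to 34.1 ± 1.76 (SD, n = 3 each; log2 fold change 0.63, SE 0.0855, edgeR adjusted p = 0.00426). It was called in all 17 alternative fits, with 0.38 after the GC correction (edgeR adjusted p = 0.0477). APRT, the salvage enzyme for adenine, was at 28.6, 34.1 and 31.4 against 28.6, 31.3 and 24.6, with overlap (log2 -0.15, edgeR adjusted p = 0.414).

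In the pyrimidine branch, CAD fell. CAD (ENSG00000084774, chromosome 2, 27217369 to 27243943, plus strand) encodes the protein that carries the first 3 activities of pyrimidine ring synthesis. Its level was 19.4, 20.9 and 19.4 FPKM in the controls and 14.8, 12.9 and 15.3 in PLOD3 siRNA. All 3 treated samples were below all controls. On average it dropped from 19.9 ± 0.848 to 14.3 ± 1.3 (SD, n = 3 each; log2 fold change -0.47, SE 0.0779, edgeR adjusted p = 0.00697), and the call was kept without each sample in turn. After the GC correction the change was -0.24 (edgeR adjusted p = 0.0304).

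UMPS, which completes uridine monophosphate at the other end of the route, rose. It was at 7.19, 5.92 and 6.74 FPKM in the controls and at 9.32, 8.99 and 7.91 in PLOD3 siRNA, without overlap (log2 0.41, SE 0.101, edgeR adjusted p = 0.0232). The call was lost without PLOD3 siRNA replicate 1 or 2 or si NC replicate 2 or 3 (edgeR adjusted p = 0.0591 to 0.0764). DHODH, the mitochondrial step between CAD and UMPS, was low, at 1.35, 1.66 and 2.02 against 1.48, 2.11 and 1.85, and the interval of its log2 fold change, -0.38 to 0.62, leaves changes of either sign possible (edgeR adjusted p = 0.688). First and last enzyme of the route thus moved in opposite directions.

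Beyond uridine monophosphate, CMPK1, the kinase that forms the diphosphates, was at 22.2, 18.6 and 22.3 FPKM in the controls and at 25.8, 23.6 and 27.0 in PLOD3 siRNA (log2 0.28, SE 0.0838, edgeR adjusted p = 0.0422). The groups were apart by little, and the call was lost in each of the 6 fits without 1 sample (edgeR adjusted p = 0.0605 to 0.109) and with the GC correction, where no difference remained (log2 -0.0049, edgeR adjusted p = 0.963). CTPS1 and CTPS2, which make cytidine triphosphate, had log2 fold changes of 0.07 and 0.12 with 95% intervals of -0.13 to 0.28 and -0.10 to 0.34 (edgeR adjusted p = 0.539 and 0.357). Their ratio was 2.16 ± 0.104 and 2.11 ± 0.291 (SD, n = 3 each, two-sided exact permutation p = 0.8).

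NME1 and NME2, nucleoside diphosphate kinases that transfer phosphate to form the triphosphates, are neighbours on chromosome 17 (51153559 to 51162428 and 51165435 to 51171744, plus strand), and the table also lists a readthrough gene, NME1-NME2, that shares exons with both. NME1 was at 73.2, 90.3 and 73.5 FPKM in the controls and at 130, 139 and 106 in PLOD3 siRNA. All treated samples were above the controls, and the rise was 0.67 on the log2 scale (SE 0.150, edgeR adjusted p = 0.0172), with the call lost without PLOD3 siRNA replicate 1, si NC replicate 1 or si NC replicate 3 (edgeR adjusted p = 0.0502 to 0.0588). NME2 was at 106, 110 and 98.0 against 124, 139 and 108, with overlap (log2 0.24, edgeR adjusted p = 0.163), and passed after the GC correction (log2 0.55, edgeR adjusted p = 0.0219). The ratio of NME1 to NME2 was 0.753 ± 0.0670 in the controls and 1.01 ± 0.0368 in PLOD3 siRNA (SD, n = 3 each), with a two-sided exact permutation p of 0.1, or 0.3 adjusted over 6 ratios. The transcripts differ in GC content (47.8% and 60.9%). After the GC correction NME1 stood at 0.65 (edgeR adjusted p = 0.0267), close to the corrected value of NME2.

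How reads were divided between these 3 listed genes is uncertain, so their sum was taken too. The readthrough gene held the largest part, at 266, 252 and 266 FPKM in the controls and 332, 401 and 328 in PLOD3 siRNA. This was 58.8% ± 2.65 and 58.7% ± 1.95 of the summed FPKM (SD, n = 3 each), so its share was alike, while NME1 held 17.7% ± 1.94 and 20.8% ± 1.35 and NME2 23.5% ± 0.990 and 20.5% ± 0.601. With the counts of all 3 added up, in an alternative chosen after seeing the data, the locus rose by 0.46 on the log2 scale (SE 0.120, edgeR adjusted p = 0.0270).

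**Figure D3:**
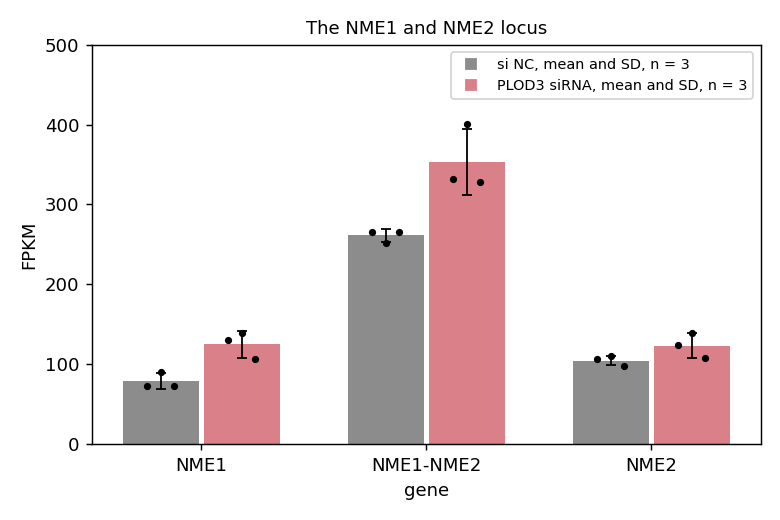
FPKM of NME1, NME2 and the readthrough gene NME1-NME2 in each sample (points) with the group mean (bars) and SD (error bars, n = 3). The readthrough gene was the highest of the 3 in both groups, at means of 261 and 353, and the PLOD3 siRNA points of NME2 overlapped the controls.

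Among enzymes of deoxynucleotide synthesis, RRM1 had the smallest adjusted p of the 37. RRM1 (ENSG00000167325, chromosome 11, 4094707 to 4138875, plus strand) encodes the large subunit of ribonucleotide reductase. It was at 34.4, 31.6 and 30.8 FPKM in the controls and at 52.4, 54.0 and 49.4 in PLOD3 siRNA, and the groups were far apart relative to their spread. The mean rose from 32.3 ± 1.87 to 51.9 ± 2.30 (SD, n = 3 each; log2 0.69, SE 0.0763, edgeR adjusted p = 0.00273), and the gene was called in all 17 alternative fits. RRM2, the small subunit, whose level normally follows the cell cycle, was at 11.4, 11.0 and 20.3 against 14.1, 18.2 and 15.9. One control was the highest of all 6 samples, and the difference did not pass the test (log2 0.18, 95% interval -0.43 to 0.80, edgeR adjusted p = 0.610). Without that control, si NC replicate 3, RRM2 stood at 0.54 (edgeR adjusted p = 0.0509), and over the 6 fits without 1 sample its lowest value was 0.036.

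TYMS and DCK rose as well. TYMS, thymidylate synthase, was at 77.1, 79.1 and 74.2 FPKM in the controls and at 94.5, 90.7 and 94.5 in PLOD3 siRNA, with little spread (log2 0.28, SE 0.0605, edgeR adjusted p = 0.0146). ENOSF1 lies on the opposite strand and overlaps 39.2% of the exon bases of TYMS. ENOSF1 also rose, from 3.46 to 4.29 FPKM by the means (log2 0.31, edgeR adjusted p = 0.0352), where the means of TYMS were 76.8 and 93.2. The strand setting of the counting is not given in the sources used here, so reads from the shared bases cannot be told apart. DCK, the salvage kinase for deoxycytidine, was at 9.46, 8.14 and 8.25 against 12.4, 10.8 and 10.8 (log2 0.40, SE 0.0930, edgeR adjusted p = 0.0191), and the GC correction ended the call (log2 0.13, edgeR adjusted p = 0.291). Both TYMS and DCK were lost without PLOD3 siRNA replicate 1 (edgeR adjusted p = 0.0538 and 0.0614) and without si NC replicate 3 (0.0608 and 0.0621).

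The remaining deoxynucleotide enzymes did not pass. TK1, the salvage kinase for thymidine, was at 103, 102 and 86.9 FPKM in the controls and at 97.4, 97.7 and 92.1 in PLOD3 siRNA, with a log2 fold change of -0.02 (95% interval -0.23 to 0.20, edgeR adjusted p = 0.896). Its transcript is GC-rich (62.8%), and after the GC correction TK1 was called higher (log2 0.32, edgeR adjusted p = 0.0370). DTYMK, which phosphorylates thymidylate, was at 13.5, 18.01 and 16.9 against 20.9, 20.1 and 19.0, without overlap (log2 0.31, edgeR adjusted p = 0.109), and likewise passed after that correction (log2 0.59, edgeR adjusted p = 0.0137). DUT, the pyrophosphatase that keeps uracil out of DNA, was at 5.79, 6.44 and 5.17 against 6.67, 9.59 and 6.69 (log2 0.41, edgeR adjusted p = 0.139). PLOD3 siRNA replicate 2 was far above the other 5 samples in DUT.

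Genes that mark dividing cells moved in the same samples. Of 6 proliferation markers, 4 rose (PCNA, CCNB1, CDK1 and TOP2A), or 66.7%, against 16.2% of all genes tested. MKI67 and MCM2 did not pass the test, and none of the 6 was at 0. The GC content of the 4 was 37.0 to 45.3%, and that of MKI67 and MCM2 48.3% and 58.1%. Of all genes tested, 32.6% were called higher under 40% GC, 28.1% at 40 to 45%, 17.2% at 45 to 50% and 4.43% at 55 to 60%. The summed level of the 6 was 349 to 392 FPKM in the controls and 478 to 527 in PLOD3 siRNA. PCNA alone had means of 182 and 261. The part of these markers in the levels of RRM1, TYMS and the other enzymes was not tested.

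**Figure D4:**
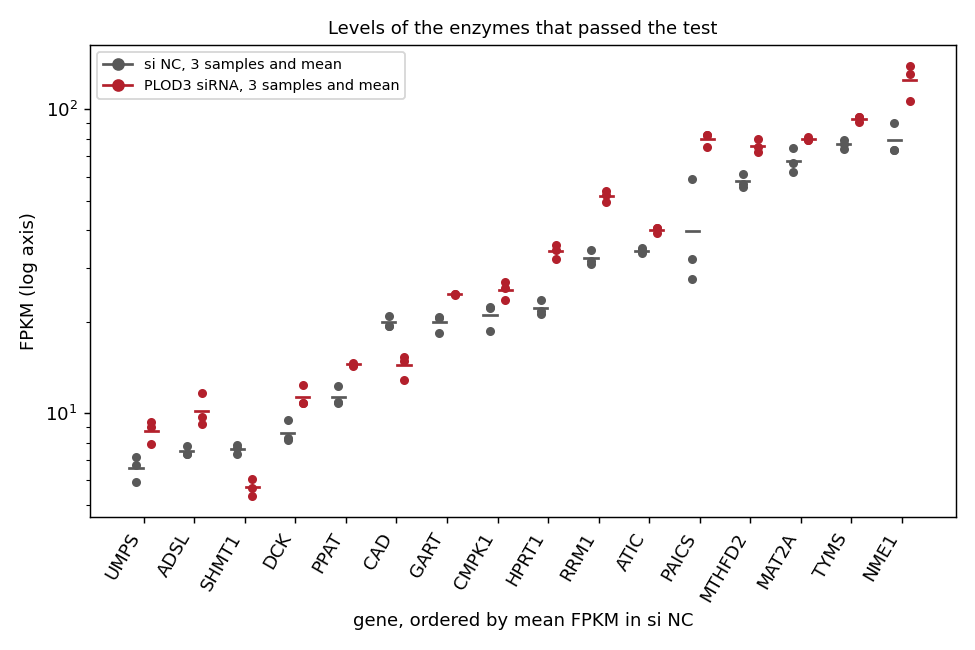
FPKM of the 16 enzymes that passed the test (log axis) in each of the 3 si NC samples (grey points) and 3 PLOD3 siRNA samples (red points), with the group means as bars and genes ordered by their mean in si NC. For the 14 higher enzymes every red point lies above every grey one, and for CAD and SHMT1 below.

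In the folate branch, the mitochondrial enzyme MTHFD2 rose and the cytosolic serine hydroxymethyltransferase SHMT1 fell. MTHFD2 (ENSG00000065911, chromosome 2, 74198610 to 74215298, plus strand), a dehydrogenase and cyclohydrolase, was at 61.3, 56.9 and 55.6 FPKM in the controls and at 79.8, 74.998 and 72.2 in PLOD3 siRNA. The groups were well separated (log2 0.39, SE 0.0703, edgeR adjusted p = 0.00858), and the call was kept without each sample in turn. After the GC correction it was lost (log2 0.17, edgeR adjusted p = 0.109). SLC4A5, on the opposite strand, overlaps 27.2% of its exon bases and was at 0.260 and 0.335 FPKM by the means. SHMT1 (ENSG00000176974, chromosome 17, 18327860 to 18363563, minus strand), which passes a carbon unit from serine to folate, was at 7.87, 7.66 and 7.34 against 6.09, 5.66 and 5.34. Every treated sample was below every control (log2 -0.41, SE 0.0771, edgeR adjusted p = 0.00964), and the call was kept without each sample in turn and with the GC correction. It was lost on values rescaled to TPM (limma adjusted p = 0.0559).

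SHMT2, the mitochondrial form of the same enzyme, was at 33.5, 51.8 and 36.4 FPKM in the controls and at 36.0, 35.6 and 37.6 in PLOD3 siRNA. Only si NC replicate 2 stood out, and the difference did not pass (log2 -0.15, edgeR adjusted p = 0.523), while without that replicate it was 0.08. The ratio of SHMT2 to SHMT1 was 5.32 ± 1.29 in the controls and 6.42 ± 0.579 in PLOD3 siRNA (SD, n = 3 each, two-sided exact permutation p = 0.3). The same control was also the high one for PAICS. MTHFD1, the cytosolic trifunctional enzyme, and MTHFD1L, a mitochondrial synthetase, had log2 fold changes of 0.16 and 0.11 (edgeR adjusted p = 0.107 and 0.370). MTHFD1 rose from 15.3 ± 0.580 to 17.0 ± 0.864 by the group means without passing, and it passed without si NC replicate 2 (edgeR adjusted p = 0.0498).

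Of the methionine cycle, which takes up carbon from folate, MAT2A rose and MTR and AHCY did not pass. MAT2A, which makes S-adenosylmethionine, was at 74.4, 62.1 and 66.7 FPKM in the controls and at 81.3, 79.0 and 79.3 in PLOD3 siRNA (log2 0.24, SE 0.0736, edgeR adjusted p = 0.0421). The treated samples were above the highest control by a small margin. The call was kept without si NC replicate 1 and lost without any of the other 5 samples (edgeR adjusted p = 0.0676 to 0.117) and with the GC correction (0.0778). GGCX, on the opposite strand, overlaps 12.4% of its exon bases and fell (log2 -0.38, edgeR adjusted p = 0.0272). MTR, methionine synthase, was low and varied widely, at 2.83, 1.37 and 2.36 against 2.72, 2.46 and 3.52 (log2 0.42, 95% interval -0.20 to 1.04, edgeR adjusted p = 0.247). AHCY, which clears S-adenosylhomocysteine, was at 88.4, 98.6 and 85.9 against 83.7, 83.4 and 88.6 (log2 -0.09, edgeR adjusted p = 0.423).

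Fold changes of all genes followed the GC content of their transcripts, and so did those of the 37 enzymes. Over all genes tested, the median log2 fold change was 0.28 for transcripts under 40% GC and -0.34 for those of at least 60%. The 3 enzymes under 40% (PPAT, CMPK1 and DCK) had a median of 0.36 and all were called higher, and the 4 of at least 60% (NME2, TK1, IMPDH1 and APRT) had a median of -0.08 and 0 were called. In the ranges 40 to 45%, 45 to 50% and 50 to 55% the enzymes' medians were 0.41 (9 genes), 0.28 (11 genes) and 0.12 (5 genes), where those of all genes were 0.21, 0.07 and -0.08. Between 55 and 60% the 5 enzymes had a median of -0.09 and all genes one of -0.23. Pearson's r between GC content and log2 fold change was -0.53 across the 37 enzymes and -0.38 across the 11968 tested genes with a GC value. Points of these correlations are genes measured in the same 6 libraries.

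A fit on counts corrected for this trend called 12 enzymes higher and 2 lower, beside 13.0% and 14.4% of all genes tested. ATIC, GART, HPRT1, NME1, RRM1, TYMS and UMPS were higher in both fits, and CAD and SHMT1 were lower in both. ADSL, CMPK1, DCK, MAT2A, MTHFD2, PAICS and PPAT were called in the uncorrected fit alone, and DTYMK, IMPDH2, NME2, PFAS and TK1 in the corrected one alone. In the folate branch 0 enzymes were then called higher. What causes the trend was not tested.

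**Figure D5:**
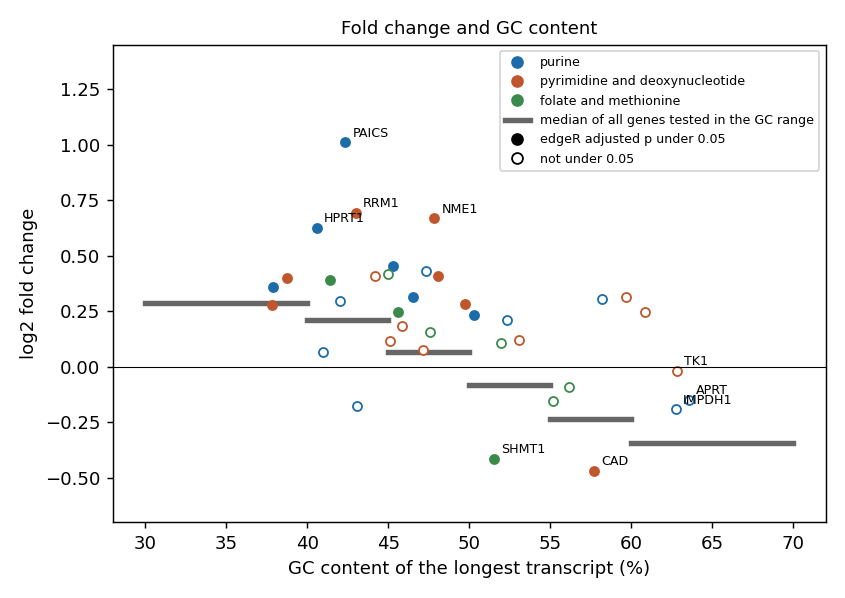
Log2 fold change of the 37 enzymes (points, coloured by branch, filled where the edgeR adjusted p was under 0.05) against the GC content of the transcript in percent, with the median of all genes tested in each GC range as grey bars. The bars step down from 0.28 to -0.34, and PAICS at 1.01 lies farthest above the bar of its range.

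The other genes of these pathways were read from a list of 74, of which 62 passed the filter of 1 FPKM. Of these, 11 were higher (17.7%, against 16.2% of all genes tested) and 8 lower (12.9%, against 19.3%) in edgeR. The median log2 fold change of the 62 was 0.04. By branch, 3 of 18 purine genes rose and 3 fell, 5 of 25 pyrimidine and deoxynucleotide genes rose and 2 fell, and 3 of 19 folate and serine genes rose and 3 fell. Salvage and breakdown enzymes held the clearest changes. CDA, cytidine deaminase, was at 32.1 ± 0.154 FPKM in controls and 15.4 ± 2.38 in PLOD3 siRNA (SD, n = 3 each; log2 -1.05, edgeR adjusted p = 0.00404). PNP, which splits purine nucleosides and feeds HPRT1, rose from 16.7 ± 0.261 to 26.5 ± 2.09 (SD, n = 3 each; log2 0.67, edgeR adjusted p = 0.00438). UPP1, uridine phosphorylase, rose from 1.61 ± 0.187 to 3.04 ± 0.0921 (SD, n = 3 each; log2 0.92, edgeR adjusted p = 0.00390). CDA, PNP and UPP1 were called in every alternative fit in which they were tested.

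Among purine companions, GMPR and AMPD2, which convert guanine and adenine nucleotides back towards IMP, fell by 0.66 and 0.57 on the log2 scale, and AK1, an adenylate kinase, fell by 0.66 (edgeR adjusted p = 0.0190, 0.00768 and 0.0366). ADK and GUK1, kinases for adenosine and guanosine monophosphate, rose by 0.43 and 0.31 (edgeR adjusted p = 0.0134 and 0.0492). After the GC correction AK1, AMPD2 and ADK stood at -0.44, -0.29 and 0.21 and did not pass (edgeR adjusted p = 0.164, 0.0626 and 0.147). AK1 was called in 1 of the 6 fits without 1 sample, GUK1 in 0 and GMPR in 2, and after the GC correction GUK1 stood at 0.63.

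Of the pyrimidine companions, NUDT1, which removes oxidised nucleotides, and NT5C, a nucleotidase, rose by 0.58 and 0.47 (edgeR adjusted p = 0.0139 and 0.0246), and NME4, the mitochondrial relative of NME1, fell by 0.58 (edgeR adjusted p = 0.0295). In the folate list, PHGDH, the first enzyme of serine synthesis, fell by 0.45 and AHCYL1, a relative of AHCY, by 0.78 (edgeR adjusted p = 0.0173 and 0.0422). GCSH and DLD of the glycine cleavage system rose by 0.89 and 0.48 and the mitochondrial folate carrier SLC25A32 by 0.29 (edgeR adjusted p = 0.0319, 0.00817 and 0.0469). After the GC correction NME4, PHGDH, AHCYL1, GCSH and SLC25A32 did not pass (edgeR adjusted p = 0.102, 0.142, 0.0521, 0.124 and 0.670). AHCYL1 and GCSH then stood at -0.79 and 0.64, NME4 and PHGDH at -0.39 and -0.20, and SLC25A32 at 0.046. AHCYL1, NME4, NT5C and SLC25A32 were each called in 1 of the 6 fits without 1 sample, and GCSH in 2. NT5C stood at 0.85 and DLD at 0.22 after the GC correction, and both passed.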

How the data were processed

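RNA-seq of 6 samples was analysed from 1 table of 60612 genes. The authors deposited an FPKM per gene and sample (0.0001 where a gene had no reads, per the file headers and values) and an estimated count, stored as whole numbers and not normalized. Reads had gone through cutadapt 1.9, HISAT2 2.0.4 and StringTie 1.3.4d, per the submitters' processing notes. Build, annotation, strand setting and counting method: not given in the sources used here. By identifier, 96.3% of genes were found in GENCODE v29 and 99.96% of those overlapped its GRCh38 positions. Low counts piled up at 4 (1490 genes per sample on average, against 558 at 3 and 312 at 5), so counts overstate read pairs. Groups and replicate numbers came from the sample titles. 

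A mean FPKM of 1 or more was required (12000 genes). Counts as deposited were scaled by TMM and compared with edgeR 4.0.16 (R 4.3.3) by the quasi-likelihood test, two-sided, with Benjamini-Hochberg adjustment over all genes tested. The fit was also run on simulated counts with known changes and no GC trend, a check of the procedure that does not bear on the calls reported here. Fold changes are log2 of PLOD3 siRNA relative to si NC. Levels are deposited FPKM, unscaled between samples. Alternatives used DESeq2 1.42.0, limma 3.58.1 on log2(FPKM + 1), log2(FPKM + 0.1) or log2(TPM + 1), upper-quartile scaling, other filters, counts divided by 4, a replicate block, a loess correction (span 0.5) for the GC content of each gene's longest transcript (known for 99.7% of tested genes), and each sample left out.

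The 37 enzymes, the companion lists and the markers were chosen with earlier results of these data known. All 37 may be named. Companions are named where called, up to 3 per branch and direction, and some results are not reported here. Pseudogenes of the enzymes lay below 1 FPKM in both groups except for NME2P1 (2.34 and 2.41), GMPSP1 (1.20 and 1.14 in si NC and PLOD3 siRNA) and PRPS1P2 (0.610 and 1.21).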

Additional observations from a re-analysis of the deposited data

How the results depend on the processing

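Over single genes, 752 values under an alternative kept their direction and their side of the threshold, 155 lost the call, 17 gained it and 22 changed sign. Of the 16 called enzymes, 6 were called without each sample in turn, 4 in all other alternatives and 2, HPRT1 and RRM1, in both. The 22 changes of sign were in enzymes that edgeR did not call with all samples and no correction, except for CMPK1. With the GC correction, and with it and the replicate block together, IMPDH1 came to 0.14 and 0.14, GMPS to -0.16 and -0.16, APRT to 0.21 and 0.20, CMPK1 to -0.0049 and -0.0053, TK1 to 0.32 and 0.32, SHMT2 to 0.0015 and 0.026, and AHCY to 0.091 and 0.092. On log2(TPM + 1) TK1 came to 0.085 and AHCY to 0.013, both below the median of all genes under that scaling (0.095), so relative to it neither changed sign. Over the fits without 1 sample, DHODH ranged from -0.031 (without PLOD3 siRNA replicate 2) to 0.28, TK1 from -0.083 to 0.037 (without si NC replicate 2) and SHMT2 from -0.29 to 0.082 (without si NC replicate 2). The cause was not tested.

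Fits with fewer samples called fewer genes. Leaving out 1 sample, enzymes called higher numbered 4 to 11, purine enzymes 2 to 5, pyrimidine and deoxynucleotide enzymes 1 to 5 and folate and methionine enzymes 1 to 2, and all genes called higher 1083 to 1651 and lower 1509 to 2011. Without a filter on FPKM, 11 enzymes were higher and 2 lower, and 1 folate enzyme was higher. With a filter of 5 FPKM, 1192 genes were higher and 1354 lower, 1 purine enzyme was lower (IMPDH1) and 1 folate enzyme higher. On log2(FPKM + 1) and log2(FPKM + 0.1), limma called 1 folate enzyme higher. On log2(TPM + 1) it called 2470 genes higher and 1461 lower, against 1945 and 2319 in edgeR, and 16 enzymes higher, 1 lower and 0 folate enzymes lower. With the GC correction 0 folate enzymes were higher.

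Deviations of same-numbered samples from their group means correlated at 0.0197, 0.0149 and 0.000667 across genes. These values gave no sign of pairing by replicate number, but 3 samples per group cannot exclude it. With the replicate block, 11 enzymes were called higher and 2 lower, 1 folate enzyme among the higher. The block with the GC correction gave 1046 genes higher and 1202 lower, 11 enzymes higher and 1 lower, 0 pyrimidine enzymes lower and 0 folate enzymes higher.

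With 3 samples per group the 95% interval of a log2 fold change had a median half-width of 0.22 over the 37 enzymes, close to the median change of 0.24, so an enzyme that did not pass may still have changed by that much. Groups of 3 are too small for the test for outlying samples, which was not run.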
